A study of Homo sapiens with 24 samples.

Results

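PRMT5 and 4 of its partner proteins, WDR77, CLNS1A, RIOK1 and COPRS, were followed at the RNA level in diffuse midline glioma cells treated with a PRMT5 inhibitor. These 5 genes were chosen by name, as the rows of the gene count table whose Ensembl identifiers map to these symbols, and they are 5 of 58676 gene identifiers. The cells were HSJD-DIPG-007, an established line from a childhood brainstem tumour whose labelled genotype, carried by the vehicle cultures too, is H3F3A K27M, ACVR1 R206H and PIK3CA MIS. Cells were grown as spheroids and given vehicle (DMSO) or LLY-283 at the GI40, the concentration that inhibits growth by 40%. Polyadenylated RNA was sequenced in 24 libraries. Under either treatment, days 0 and 5 were represented by 3 libraries, day 7 by 2, and days 1, 2, 3 and 10 by 1. The labels speak of one dose, and the methods of the study add that medium with a second dose was given after 5 days. All libraries come from this 1 cell line and those of a group and day are described as technical repeats, so p-values measure the spread between such repeats.

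PRMT5 is the main enzyme that places symmetric dimethylation on arginine, using S-adenosylmethionine (SAM) as methyl donor. It works in an assembly with WDR77 (also called MEP50), a WD-repeat protein that binds each PRMT5 subunit and helps present substrates. CLNS1A (pICln), RIOK1 and COPRS are adaptors that bring different substrates to the enzyme, namely the Sm proteins of the spliceosome, nucleolin and histones, and CLNS1A and RIOK1 compete for the same binding site. LLY-283 occupies the SAM pocket of PRMT5 and blocks its activity. RNA levels do not measure that activity or the amount of protein.

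Library totals ranged from 13835205 to 23190369 counts. Of 8 markers of glioma with oligodendrocyte precursor features, 7 were expressed and only SOX10 was near 0, with a median of 0.192 CPM, the count scaled to the size of the library. Of 5 markers of microglia and leukocytes, PTPRC, AIF1 and CX3CR1 had a median of 0 CPM, CD68 of 0.196 and CSF1R of 0.438. Fibroblast markers summed to 377.9 CPM in repeat 3 of vehicle day 5, against 218.4 and 226.2 in its fellow vehicle repeats and 299.5 to 301.3 in the LLY-283 libraries. THY1 and POSTN had the highest medians of this list, at 136.5 and 54.96 CPM. Its members did not move as one. Of 8 tested at day 5, 3 were called higher with LLY-283 and 0 lower, against 12% of all genes called higher. Their median log2 difference was -0.38. On a scale where the mean of the vehicle libraries of day 5 is 0% and that of the LLY-283 libraries is 100%, built from the genes called at day 5 other than the 5 described here, the repeat 1 libraries of day 7 were found at -2.67% (vehicle) and 73.0% (LLY-283). For repeat 2 the vehicle label stood at 47.4% and the LLY-283 label at -7.81%, in the reverse order of the labels. The scale is not particular to the drug. Libraries of day 0 stood at 19.6% to 32.8% (vehicle) and 18.2% to 24.8% (LLY-283). Day 7 values are therefore given by label and also without each library in turn.

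Positions are from GENCODE v44 on GRCh38. PRMT5 (ENSG00000100462) lies on the minus strand of chr14:22920525-22929408, WDR77 (ENSG00000116455) on the minus strand of chr1:111439890-111449256 and CLNS1A (ENSG00000074201) on the minus strand of chr11:77514936-77637794. RIOK1 (ENSG00000124784) lies on the plus strand of chr6:7389793-7418037 and COPRS (ENSG00000172301) on the minus strand of chr17:31851871-31859291. The long non-coding gene ENSG00000243960 shares 673 exonic bases, 25.1% of those of WDR77, on the same strand. It was counted at 3.71 to 7.95 CPM, so the split of reads between it and WDR77 is uncertain, and WDR77 is also given with both summed. ATP5PB shares 90 exonic bases of WDR77 (3.35%) on the opposite strand. It had a mean of 204.6 CPM with vehicle and 182.8 with LLY-283 at day 5, and its part in the counts of WDR77 was not tested. PRMT5-AS1 overlaps 28.2% of the exonic bases of PRMT5 on the opposite strand and had at most 0.887 CPM. The pseudogene PRMT5P1 had 0 CPM in each library, and CLNS1AP1 and COPRSP1 reached 0.0693 and 0.0534 CPM when scaled by library size alone.

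The start regions of PRMT5, WDR77 and RIOK1 are shown because they are the enzyme and the partners with the largest differences at day 5, and because the regulators MYC and NFYA, described further on, recognise motifs of the kinds searched. Each run holds 250 bases before and 50 after the RefSeq start (GRCh38.p14), read 5′ to 3′ on the strand of the gene, and 5 of 5 genes were matched by symbol. Capitals mark CCAAT (the motif of NF-Y), CACGTG (an E-box that MYC can bind), GGGCGG (the motif of SP1) and CCGGAAG (the motif of ETS factors), searched on both strands, so that ATTGG is CCAAT on the other strand and CTTCCGG is CCGGAAG.
PRMT5, minus strand, chr14:22929327-22929626: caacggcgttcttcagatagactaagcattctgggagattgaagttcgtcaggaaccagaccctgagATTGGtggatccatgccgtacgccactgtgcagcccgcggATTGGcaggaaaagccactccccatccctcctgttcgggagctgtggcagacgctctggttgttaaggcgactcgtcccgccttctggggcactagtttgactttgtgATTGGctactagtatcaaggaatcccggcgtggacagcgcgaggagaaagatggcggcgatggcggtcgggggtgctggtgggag
WDR77, minus strand, chr1:111449207-111449506: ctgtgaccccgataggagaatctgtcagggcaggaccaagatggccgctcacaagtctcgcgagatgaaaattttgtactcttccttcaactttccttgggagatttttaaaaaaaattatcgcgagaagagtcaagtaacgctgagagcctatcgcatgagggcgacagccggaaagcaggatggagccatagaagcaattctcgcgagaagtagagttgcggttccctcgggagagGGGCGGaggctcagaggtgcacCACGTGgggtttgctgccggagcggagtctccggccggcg
RIOK1, plus strand, chr6:7389558-7389857: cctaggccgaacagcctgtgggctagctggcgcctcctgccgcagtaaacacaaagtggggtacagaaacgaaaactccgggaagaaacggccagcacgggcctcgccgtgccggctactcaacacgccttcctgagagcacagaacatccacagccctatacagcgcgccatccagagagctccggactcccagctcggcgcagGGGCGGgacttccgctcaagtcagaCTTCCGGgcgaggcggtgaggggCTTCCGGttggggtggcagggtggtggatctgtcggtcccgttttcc

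PRMT5 holds 3 CCAAT motifs and none of the other motifs searched. WDR77 holds 1 CACGTG and 1 GGGCGG, and RIOK1 holds 2 CCGGAAG and 1 GGGCGG. CLNS1A, not shown, has 1 CCGGAAG and 2 overlapping GGGCGG, and COPRS has 3 GGGCGG. Of 27305 start regions of this length, 35.7% hold CCAAT, 7.43% CACGTG, 44.6% GGGCGG and 10.7% CCGGAAG on either strand. These matches describe letters in the window and are not measured binding sites. Their part in the differences at day 5 was not tested.

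All 5 genes were expressed in every library, with 408 counts or more. Per kilobase of the longest annotated transcript, the level was 46.9 ± 5.81 CPM (SD, n = 24 libraries) for WDR77, 40.7 ± 2.93 for CLNS1A, 35.9 ± 1.97 for PRMT5, 30.6 ± 2.79 for RIOK1 and 26.7 ± 2.58 for COPRS. WDR77 was above CLNS1A in 21 of 24 libraries, and each further step of this order held in 24 of 24. With the union of exons as length, WDR77 stayed first in 24 of 24 libraries and COPRS last in 24 of 24, but PRMT5 and CLNS1A were level at 26.5 CPM per kilobase each, PRMT5 being higher in 12 of 24. The order of the 3 middle genes therefore rests on the choice of length. PRMT5 itself varied least, from 74.2 to 94.2 CPM, a highest-to-lowest ratio of 1.27, whereas WDR77 ranged from 89.4 to 137.2 CPM, a ratio of 1.54. In the LLY-283 library of day 3, PRMT5, WDR77 and RIOK1 each had their lowest value.

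**Figure D1:**
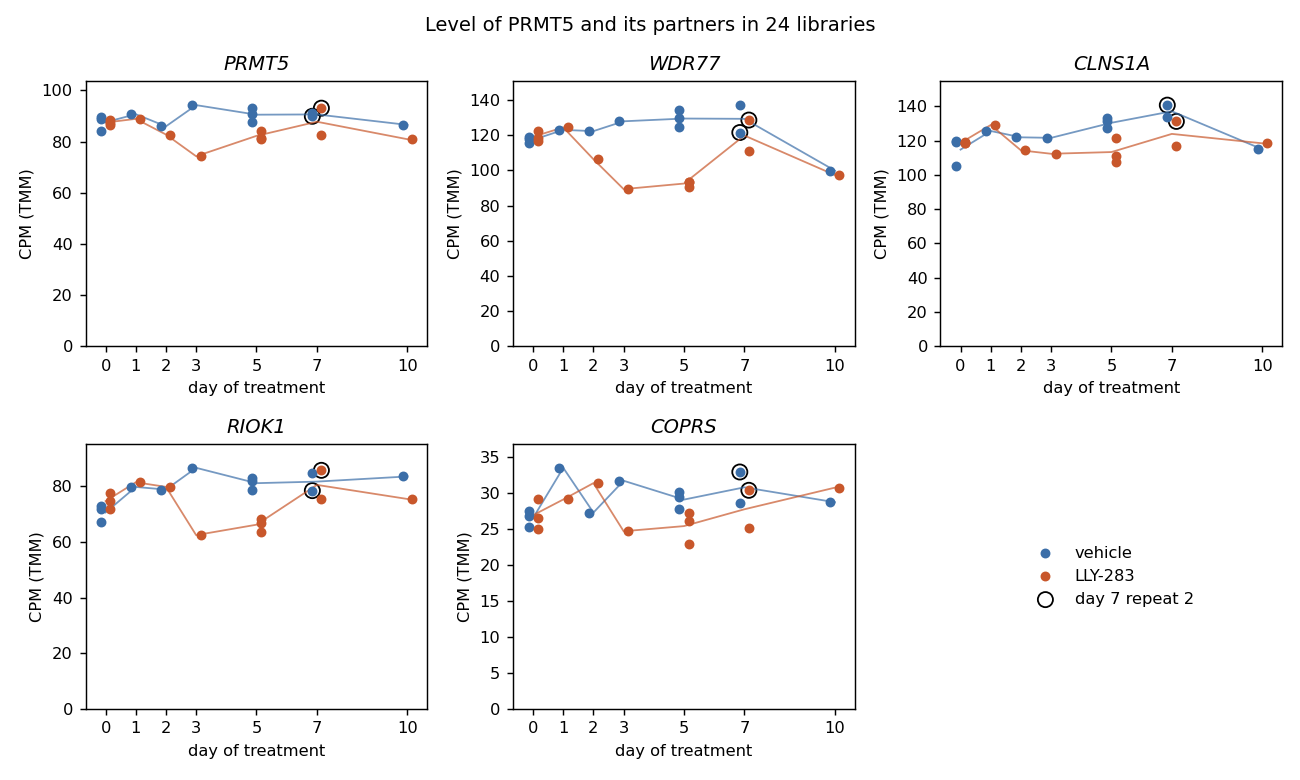
CPM normalised by TMM (y axis, from 0) against day of treatment (x axis) for each gene in the 24 libraries. Points are libraries (blue vehicle, orange LLY-283), lines join the means of a treatment group, and rings mark the day 7 libraries of repeat 2; for WDR77, the LLY-283 points of days 3 and 5 sit between 89.4 and 93.5 CPM, below the vehicle points of the same days.

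At day 5, RNA for the partner WDR77 was 92.5 ± 1.67 CPM in LLY-283 treated cells and 129.6 ± 4.75 with vehicle (SD, n = 3), while RNA for PRMT5 itself differed less, at 82.2 ± 1.60 and 90.5 ± 2.83. Of the 5 genes, 3 were called lower (WDR77, RIOK1 and CLNS1A) at an adjusted p under 0.01, against 14.1% of the 16491 genes tested called lower and 26.1% called in either direction. All 5 fitted differences were below 0, and the groups did not overlap in 5 of 5 genes, against 46.7% of all genes tested. The median difference of the 5 genes was -0.18 on the log2 scale, beside 0.02 over all genes tested.

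PRMT5, the catalytic subunit, had 90.8, 93.2 and 87.5 CPM in the vehicle libraries of day 5 and 84.0, 81.5 and 81.1 CPM in the LLY-283 libraries. The groups lay close but did not overlap. The fitted log2 difference was -0.11 (SE 0.041, 95% interval -0.20 to -0.03), and with an edgeR adjusted p of 0.031 it did not pass the threshold of 0.01. At the looser threshold of 0.05, which 36.7% of genes passed, all 5 genes did. With DESeq2, PRMT5 and COPRS did not (adjusted p = 0.072 and 0.14).

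WDR77, the obligate partner, had 129.8, 134.2 and 124.7 CPM with vehicle and 93.5, 93.5 and 90.6 CPM with LLY-283. Every LLY-283 library lay well below every vehicle library. It was 27.4% lower with LLY-283 (95% interval -31.4% to -23.2%), or -0.46 on the log2 scale (SE 0.040, edgeR adjusted p = 4.8e-10). WDR77 ranked 144 of 16491 genes by p. Summed with the overlapping ENSG00000243960 the difference was -0.42, and that gene alone gave 0.24 with an edgeR adjusted p of 0.18.

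Among the adaptors, RIOK1, an atypical kinase that also takes part in maturation of the small ribosomal subunit, had 81.8, 78.9 and 82.9 CPM with vehicle and 68.3, 63.5 and 66.9 with LLY-283. These groups were clearly apart, and RIOK1 was lower with LLY-283 by 0.27 on the log2 scale (SE 0.044, edgeR adjusted p = 2.1e-05). CLNS1A, which hands Sm proteins to the methylosome, had 127.1, 131.2 and 132.9 CPM with vehicle and 121.5, 111.0 and 107.4 with LLY-283. Its LLY-283 libraries spread more, and repeat 1 came near the vehicle libraries. CLNS1A was lower with LLY-283 by 0.18 (SE 0.041, edgeR adjusted p = 0.00099). Without repeat 3 of LLY-283 the difference was -0.15 with an edgeR adjusted p of 0.014, no longer past the threshold. COPRS, the adaptor for histones, had 27.8, 29.5 and 30.1 CPM with vehicle and 27.3, 26.1 and 22.9 with LLY-283. Its difference of -0.17 (SE 0.068) was not called (edgeR adjusted p = 0.048).

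Genes of proliferation were also lower with LLY-283 at day 5. Their sum over 12 genes was 2850 to 2935 CPM in the vehicle libraries of day 5 and 2234 to 2365 in the LLY-283 libraries. In the LLY-283 libraries of day 0 that sum was lower still, at 2047 to 2086 CPM, whereas WDR77 was higher than at day 5. The part of proliferation in the lower levels of the PRMT5 partners was not tested. Fewer cells of one kind and less RNA per cell cannot be told apart in bulk RNA. Without repeat 3 of vehicle, in which the sum of fibroblast markers was high, the same 3 genes were called. WDR77 was then at -0.49, RIOK1 at -0.26 and CLNS1A at -0.17. That fit still compares groups apart in this sum, at 218.4 and 226.2 CPM with vehicle and 299.5 to 301.3 with LLY-283. The part of the fibroblast markers in these differences was not tested.

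The ratio of 2 genes in a library does not depend on how libraries are scaled. WDR77 over PRMT5 was 1.43, 1.44 and 1.42 counts per count in the vehicle libraries of day 5 and 1.11, 1.15 and 1.12 in the LLY-283 libraries, with means of 1.43 ± 0.0082 and 1.13 ± 0.018 (SD, n = 3). The gap was many times the spread between repeats. An exact two-sided permutation test gave p = 0.1 (0.35 when adjusted over the 7 ratios tested), the smallest p that 3 against 3 libraries allow. RIOK1 over PRMT5 was 0.898 ± 0.050 with vehicle and 0.806 ± 0.024 with LLY-283 without overlap (exact permutation p = 0.1). At day 0 the same ratio was 0.807 ± 0.011 with vehicle and 0.855 ± 0.023 with LLY-283, also without overlap but in the opposite direction (exact permutation p = 0.1). CLNS1A over PRMT5 (1.44 and 1.38) and COPRS over PRMT5 (0.322 and 0.309) overlapped between the groups, with exact permutation p of 0.3 and 0.6. The share of each adaptor against the other two overlapped as well, with exact permutation p of 0.2 to 0.5, and no p under 0.1 was possible. At day 7, by label, CLNS1A over the sum of RIOK1 and COPRS was 1.22 ± 0.062 with vehicle and 1.15 ± 0.023 with LLY-283, and RIOK1 over the sum of CLNS1A and COPRS was 0.488 ± 0.051 and 0.531 ± 0.00032 (SD, n = 2). These did not overlap and lay in the opposite direction to day 5. CLNS1A over PRMT5 did not overlap at day 7 either, at 1.51 with vehicle and 1.41 with LLY-283, in the same direction as at day 5. Each of these ratios had an exact permutation p of 0.33, the smallest that n = 2 allows.

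**Figure D2:**
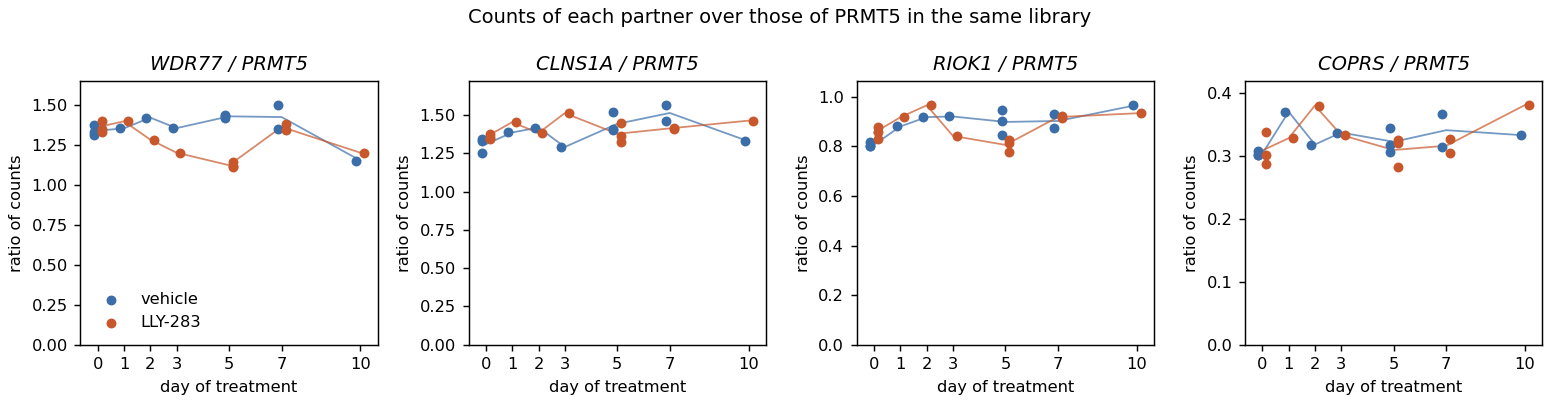
Counts of each partner divided by counts of PRMT5 in the same library (y axis, from 0) against day of treatment (x axis). Points are libraries (blue vehicle, orange LLY-283) and lines join the group means; WDR77 over PRMT5 lies at 1.11 to 1.15 in the LLY-283 libraries of day 5 and at 1.42 to 1.44 in the vehicle libraries.

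At day 0 none of the 5 genes was called, where 0.0169% of 17780 genes were called at all. WDR77 had 115.5, 118.0 and 118.8 CPM with vehicle and 118.2, 116.8 and 122.6 with LLY-283, and PRMT5 had 83.9, 89.7 and 89.0 against 88.5, 86.4 and 87.4. Both sets overlapped. The fitted differences of the 5 genes ranged from -0.01 for PRMT5 to 0.07 for RIOK1, with edgeR adjusted p between 0.87 and 0.99.

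Between day 0 and day 5 the treatment groups went different ways. In vehicle cultures CLNS1A rose by 0.17, RIOK1 by 0.18 and WDR77 by 0.13 on the log2 scale (edgeR adjusted p = 0.0020, 0.00090 and 0.0076), against 22.2% of genes called higher and 38.9% called in all. The WDR77 call was lost in 5 of the 6 fits that left out 1 library. CLNS1A lost its call without repeat 1 of vehicle day 0, at 0.11 with an edgeR adjusted p of 0.018. PRMT5, at 0.03, and COPRS, at 0.11, did not pass the test.

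In LLY-283 cultures WDR77 fell by 0.35 (edgeR adjusted p = 1.1e-08) and RIOK1 by 0.16 (0.0031), where 19.5% of genes were called lower and 42.4% in all. RIOK1 was no longer called in 3 of the 6 fits that left out 1 library (repeat 1 or 3 of day 0, or repeat 2 of day 5), with values of -0.13, -0.16 and -0.13. PRMT5 at -0.07, CLNS1A at -0.05 and COPRS at -0.07 were not called.

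The change itself differed between the treatment groups for 2 of the 5 genes, against 14.9% of the 18369 genes tested in either direction and 8.15% of them with a lower change under LLY-283. WDR77 changed by 0.47 less on the log2 scale with LLY-283 than with vehicle (-0.47, SE 0.051, edgeR adjusted p = 1.7e-07), and RIOK1 gave -0.33 (SE 0.061, 0.00015). CLNS1A at -0.21 (0.013), PRMT5 at -0.10 (0.21) and COPRS at -0.17 (0.20) did not pass, although CLNS1A did without repeat 2 or 3 of vehicle day 0 (-0.26 and -0.24) or repeat 1 of LLY-283 day 5 (-0.26). The overlapping ENSG00000243960 went the other way (0.63, edgeR adjusted p = 0.0092), and WDR77 summed with it gave -0.41. Part of that 0.63 came from day 0, where ENSG00000243960 was at -0.39 with LLY-283 against vehicle, though not called (edgeR adjusted p = 0.61). Part of the -0.33 of RIOK1 came from day 0 as well, where RIOK1 was at 0.07, not called (edgeR adjusted p = 0.87). These comparisons share their libraries with the test at day 5 and are not independent of it.

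**Figure D3:**
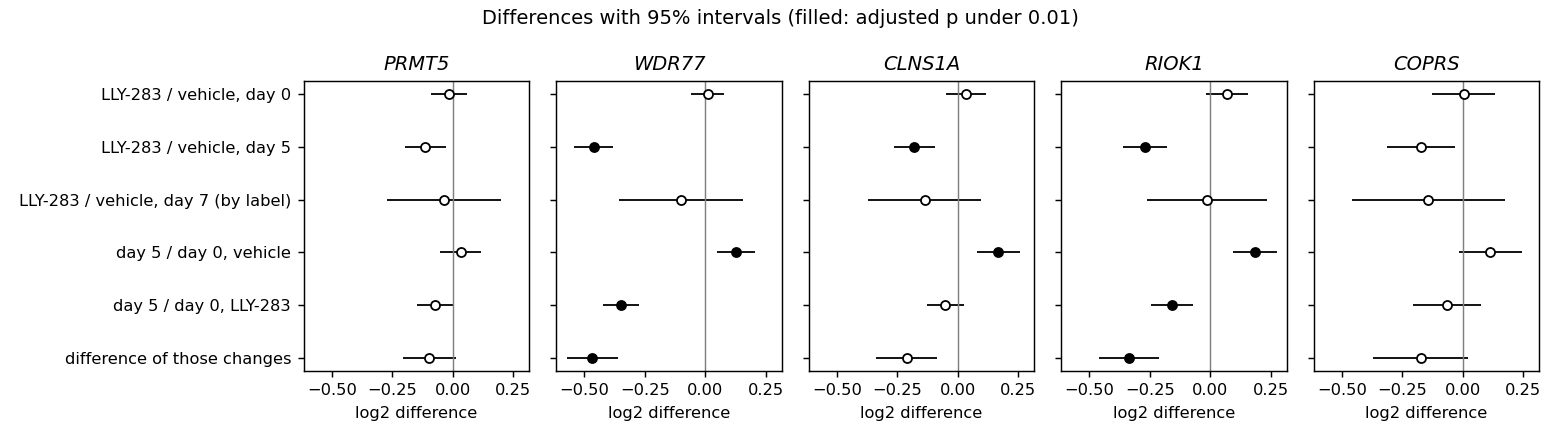
Fitted log2 differences (x axis) with 95% intervals for 6 comparisons (y axis) in 5 genes. Filled points passed an adjusted p of 0.01; at day 5 WDR77 lies at -0.46 and PRMT5 at -0.11, and all 5 intervals of day 0 span 0.

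Days 1, 2, 3 and 10 had 1 library per treatment group, so no test was made, and the intervals given here cover counting error only. WDR77 had 123.1 CPM with vehicle and 124.5 with LLY-283 at day 1, 122.4 and 106.4 at day 2, and 128.0 and 89.4 at day 3. The log2 ratio of LLY-283 to vehicle was thus 0.02 at day 1, -0.20 at day 2 (95% interval -0.29 to -0.12) and -0.52 at day 3 (-0.61 to -0.42). The library of day 2 lay between those of days 1 and 3.

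PRMT5 had 90.7 and 88.9 CPM at day 1, 85.9 and 82.7 at day 2, and 94.2 and 74.2 at day 3, where the log2 ratio was -0.34 (-0.45 to -0.24). That single pair differed more than the means of day 5. RIOK1 was level at days 1 and 2, with log2 ratios of 0.03 and 0.02, and stood at -0.47 (-0.59 to -0.36) at day 3. COPRS, the gene with the fewest counts, went from -0.20 at day 1 to 0.20 at day 2 and -0.36 at day 3. Its intervals were -0.37 to -0.04 at day 1 and 0.03 to 0.37 at day 2, which exclude 0 on opposite sides. At day 3 the interval was -0.55 to -0.18. CLNS1A differed least at day 3, at -0.12 (-0.21 to -0.03).

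At day 10 the levels of WDR77 were 99.9 CPM with vehicle and 97.4 with LLY-283. The log2 ratio was -0.04 (-0.13 to 0.06), with the vehicle library far below the 124.7 CPM or more of the vehicle libraries of day 5. That vehicle library lay at 60.6% on the day 5 scale, and its 5 endothelial markers summed to 25.5 CPM, of which PECAM1 was 24.96, against 4.47 to 9.26 in the libraries of days 0 to 7 and 12.2 in the LLY-283 library of day 10. The part of these in the WDR77 level was not tested. Log2 ratios of the other 4 genes at day 10 ranged from -0.15 for RIOK1 to 0.10 for COPRS.

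At day 7, by label, none of the 5 genes was called, nor was any of the 16826 genes tested (0% called with edgeR, 236 at an unadjusted p under 0.05, and 3 called with DESeq2). WDR77 had 137.2 and 121.6 CPM with vehicle (repeats 1 and 2) and 111.1 and 128.7 with LLY-283. The repeat 1 libraries were ordered as at day 5 and the repeat 2 libraries were not. The fitted difference was -0.10 (95% interval -0.36 to 0.16), -0.19 without repeat 2 of vehicle and -0.21 without repeat 2 of LLY-283, but -0.0038 and -0.0083 without repeat 1 of vehicle and of LLY-283. The size of the difference by label thus depended on the repeat 1 libraries. PRMT5 had 91.3 and 89.9 CPM with vehicle and 82.4 and 93.0 with LLY-283, a difference of -0.04 that ranged from -0.13 (without repeat 2 of LLY-283) to 0.038 (without repeat 1 of LLY-283). RIOK1, at -0.01, ranged from -0.11 to 0.069, CLNS1A, at -0.14, from -0.22 to -0.064, and COPRS, at -0.14, from -0.29 to -0.020, each over the same pair of fits. None of the 5 genes was called when any 1 of the 4 libraries was left out. The ratio WDR77 over PRMT5 was 1.503 and 1.352 with vehicle and 1.348 and 1.383 with LLY-283, which overlap (exact permutation p = 0.67).

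In the test of the whole course over days 0 to 7, in which 0.0289% of 20756 genes were called, none of the 5 genes passed. WDR77 ranked 16 of 20756 by p, with an edgeR adjusted p of 0.021, and RIOK1 had 0.073. PRMT5 had 0.33, and CLNS1A and COPRS had 0.39 each. With both repeat 2 libraries of day 7 left out, neither WDR77 nor RIOK1 passed. With only 1 of the 4 day 7 libraries left out, WDR77 passed in each case. RIOK1 passed without repeat 1 or repeat 2 of LLY-283. Each of these fits left 1 library in a group of day 7. Each also called more of all genes tested than the fit with every library of days 0 to 7. The passes are therefore not particular to WDR77 and RIOK1.

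Across the 24 libraries the 5 genes varied together to different degrees. The libraries share treatment groups and days, so these correlations of log2 CPM only describe the pattern. PRMT5 and WDR77 had a Pearson r of 0.864, which placed WDR77 25 in the order of 10219 genes most like PRMT5. The median r of PRMT5 with those genes was 0.154. In the same order RIOK1 stood at 413, CLNS1A at 845 and COPRS at 1952, so many other genes followed PRMT5 more closely than these adaptors. The lowest r among the 5 genes was 0.442, for WDR77 with COPRS. The genes most like PRMT5 were FARSA (r = 0.924) and KARS1 (0.892), which charge tRNAs, and the mitochondrial CHCHD3 (0.909). Those most like WDR77 were the proteasome genes PSMD14 (0.950) and PSMC2 (0.944) and the peroxidase PRDX1 (0.943). CLNS1A was nearest to KPNA4 (0.915), RHOA (0.910) and PPA1 (0.909), and RIOK1 to TOMM34 (0.912), NOC3L (0.912) and SOD1 (0.903). COPRS had no neighbour above 0.783, the value for CKAP4, followed by FN3KRP (0.782) and VPS35 (0.761). Over the 20 libraries without day 10 and the day 7 repeat 2 libraries, the order changed for COPRS, with CKAP4 at rank 66, FN3KRP at 54 and VPS35 (r = 0.822) at 3. For RIOK1, TOMM34 and NOC3L then stood at ranks 34 and 31 and SOD1 at 6. For PRMT5 and CLNS1A the neighbours named stood within rank 18, and for WDR77 within rank 7.

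Other genes of the PRMT5 pathway were read at day 5 from lists chosen with earlier results of these data known. The counts of every list stand against 14.1% of all genes tested called lower at day 5 and 26.1% called in either direction. Of 9 Sm and Sm-like proteins, some of them substrates delivered by CLNS1A, 8 were called lower and 0 higher, with a median of -0.24. SNRPB, which encodes the B and B′ proteins, had 411 to 424 CPM with vehicle and 336 to 360 with LLY-283 (-0.24, SE 0.034, edgeR adjusted p = 2.5e-06). SNRPD1 (-0.31), SNRPD3 (-0.28) and SNRPG (-0.28) were also lower. Tudor proteins and the SMN complex, which loads methylated Sm proteins onto small nuclear RNAs, were represented by 12 genes. Of these, 5 were called lower and 0 higher, with a median of -0.16. GEMIN5, which binds those RNAs, had 99.6 to 104.2 CPM with vehicle and 74.1 to 81.9 with LLY-283 (-0.36, SE 0.042, edgeR adjusted p = 1.3e-07), and GEMIN4 differed by -0.46. GEMIN6 (-0.27) and STRAP (-0.15) were called too, but lost the call in 3 and 2 of the 6 fits that left out 1 library. SMN1 and SMN2 are near-identical copies, as SNRPB and SNRPN are close ones, and their counts are uncertain.

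Of 17 other reported substrates, 8 were called lower and 1 higher, with a median of -0.11. The lower ones included the splicing factor SRSF1 (-0.32), the flap endonuclease FEN1 (-0.36), the DNA-binding FUBP1 (-0.36) and the stress granule protein G3BP1 (-0.27). Of 9 other reported partners, 2 were called higher and 1 lower, a share near the 26.1% of all genes called at day 5, and the median was -0.08. The chromatin remodeller SMARCA2 had 12.6 to 13.6 CPM with vehicle and 16.0 to 17.9 with LLY-283 (0.36, SE 0.085, edgeR adjusted p = 0.0013), DNMT3A gave 0.17 and the methyl-DNA reader MBD2 gave -0.21. These calls were lost in 2 (SMARCA2), 5 (DNMT3A) and 3 (MBD2) of the 6 fits that left out 1 library.

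Of the other arginine methyltransferases, 7 could be tested, and 3 of them were called lower and 0 higher, with a median of -0.14. PRMT1, the main enzyme for asymmetric dimethylation, had 388.8 to 417 CPM with vehicle and 331.7 to 337.2 with LLY-283 (-0.25, SE 0.035, edgeR adjusted p = 1.7e-06). CARM1 gave -0.30 and PRMT3 -0.21. PRMT8 was too low to be tested. The PRMT3 call was lost in 4 of the 6 fits that left out 1 library.

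Of 14 enzymes that make or recycle SAM and methylthioadenosine (MTA), a natural inhibitor of PRMT5, 8 were called lower and 0 higher, with a median of -0.17. MTAP, which clears MTA, had 71.3 to 72.7 CPM with vehicle and 49.7 to 55.7 with LLY-283 (-0.44, SE 0.048, edgeR adjusted p = 3.0e-08). MAT2A, which makes SAM, gave -0.30, and SRM and AMD1 of polyamine synthesis, which yields MTA, gave -0.36 and -0.28. Of 9 reported regulators of the amount of PRMT5, 5 were called lower and 0 higher, with a median of -0.19. MYC had 441.2 to 467.2 CPM with vehicle and 352.2 to 363.4 with LLY-283 (-0.33, SE 0.034, edgeR adjusted p = 1.4e-08). The interaction of MYC between days 0 and 5 was smaller, at -0.20 (edgeR adjusted p = 0.0028). Part of its -0.33 therefore came from day 0. NFYA, a subunit of the CCAAT-binding NF-Y, gave -0.27, and the chaperones HSP90AA1 and HSP90AB1 gave -0.45 and -0.26. All 12 proliferation genes were called lower, with a median of -0.28 and TOP2A at -0.51. WDR77, at -0.46, stood beside GEMIN4, HSP90AA1 and MTAP in these values, and PRMT5, at -0.11, was nearer 0 than each of the list medians except those of the other substrates and other partners.

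**Figure D4:**
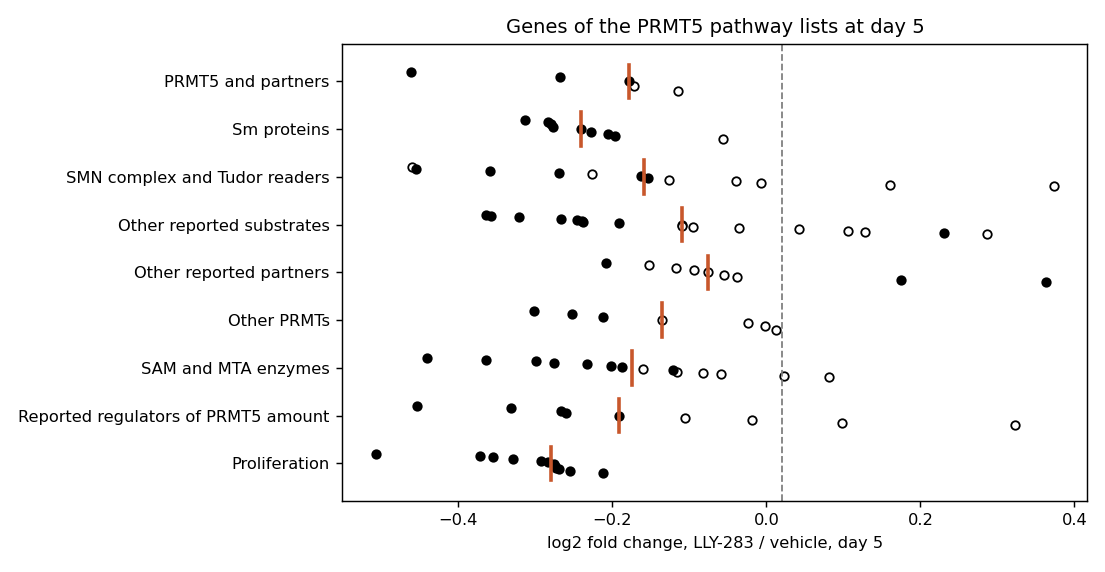
Log2 fold change of LLY-283 over vehicle at day 5 (x axis) for each tested gene of 9 lists (y axis). Filled points were called at an adjusted p under 0.01, bars mark list medians and the dashed line the median of all genes at 0.02; the bars run from -0.08 for other reported partners to -0.28 for proliferation.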

How the data were processed

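Reads of 41 bases in pairs, from polyadenylated RNA, were assigned by the authors to hg38 transcripts with kallisto, whose version is not given in the sources used here, and deposited as estimated counts, rounded per gene and not normalised. Strand settings were not given. Of 58676 identifiers, 58207 matched a symbol. Levels are CPM (TMM, all 24 libraries). Tests used edgeR 4.0.16 in R 4.3.3 (TMM, filterByExpr by group and day, robust quasi-likelihood, Benjamini-Hochberg over all genes tested), calling genes at an adjusted p under 0.01. Single libraries have 95% counting intervals. Ratios of counts used exact permutation tests. Up to 4 genes of smallest p were named from those called in each pathway list, and for each member the 3 genes most correlated over libraries, of mean CPM at least 10. The members and lists were chosen with earlier results of these data known. Scripts were tested on simulated data. Alternatives were DESeq2 1.42.0, its size factors, library size alone, no filter, a looser threshold, a shared spread, a repeat block, other libraries, another length and each library left out. Summing WDR77 with its overlapping gene was added after the values were seen.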

Additional observations from a re-analysis of the deposited data

Results flagged for a closer look

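The change from day 0 to day 5 differed between LLY-283 and vehicle cultures, by the interaction test of edgeR, for WDR77 and RIOK1. For WDR77 the difference between the changes was -0.47 on the log2 scale, with a rise of 0.13 in vehicle and a fall to -0.35 in LLY-283, and it ranged from -0.50 to -0.45 when each of 12 libraries was left out. For RIOK1 it was -0.33, from 0.18 in vehicle and -0.16 in LLY-283, with a range of -0.38 to -0.31. Part of the RIOK1 value came from day 0, where RIOK1 was at 0.07 with LLY-283 against vehicle, not called. The proliferation genes moved over the same days, with summed levels of 1984 to 2087 CPM at day 0 of vehicle and 2850 to 2935 at day 5, and of 2047 to 2086 and 2234 to 2365 in LLY-283. In LLY-283, 7 of these 12 genes were called higher at day 5 than at day 0 and 3 lower (median 0.33). Of all genes tested there, 22.9% were called higher and 19.5% lower. WDR77 and RIOK1 fell over the same days. The part of the proliferation genes in these differences was not tested.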

How the results depend on the processing

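The lower WDR77 and RIOK1 at day 5, and their interaction between days 0 and 5, kept direction and call in every alternative run. WDR77 at day 5 ranged from -0.49 to -0.45 over left-out libraries and from -0.49 to -0.42 otherwise. CLNS1A at day 5 gave -0.20 (edgeR adjusted p = 0.018) when 22 libraries shared the spread, which called 2042 genes in place of 4304, and -0.23 to -0.15 over left-out libraries. At a threshold of 0.05, PRMT5 (-0.11) and COPRS (-0.17) were called too in the main fit. They missed that threshold with DESeq2 (adjusted p = 0.072 and 0.14) and with no filter (edgeR adjusted p = 0.087 and 0.073). COPRS missed it with the repeat block too (edgeR adjusted p = 0.056). Both genes missed it with library size alone (edgeR adjusted p = 0.097 and 0.11) and when 22 libraries shared the spread (0.058 and 0.12). Over left-out libraries their edgeR adjusted p reached 0.11 and 0.28. At day 0 the count of called genes was 56 with no filter, 6 with the repeat number as a block and 0 to 17 over left-out libraries. WDR77 at day 0 turned to -0.011 when summed with its overlapping gene. Over left-out libraries signs at day 0 turned, from -0.038 to 0.0019 for PRMT5, -0.011 to 0.024 for WDR77, -0.016 to 0.064 for CLNS1A and -0.053 to 0.055 for COPRS. At day 7 the count was 3 with DESeq2, 27 with no filter and 7 to 32 over left-out libraries, where PRMT5 ranged from -0.13 to 0.038 and RIOK1 from -0.11 to 0.069. COPRS in LLY-283 from day 0 to 5 ranged from -0.12 to 0.0028. The WDR77 rise in vehicle was not called with DESeq2 (0.12), no filter (0.12), the repeat block (0.13) or the summed gene (0.10), and was 0.11 to 0.16 over left-out libraries. CLNS1A in vehicle was 0.11 to 0.20. RIOK1 in LLY-283 was -0.17 with DESeq2 (adjusted p = 0.010), not called, and -0.19 to -0.13 over left-out libraries. The CLNS1A interaction was called at -0.23 with DESeq2 and with its size factors, and was -0.26 to -0.18 over left-out libraries. The whole course called 249 genes with DESeq2, 10 with its size factors, 1217 with no filter, 1 with the repeat block and 0 to 894 over left-out libraries. There WDR77 passed with DESeq2 (adjusted p = 6.8e-06) and no filter (1.8e-06), with 0.00021 to 0.14 over left-out libraries in edgeR, and RIOK1 with 0.0044, 0.0016 and 0.0026 to 0.22. The causes were not tested. Over all genes, same-numbered repeats did not deviate together (correlations between -0.076 and 0.053), which gives no sign that the repeat numbers pair the libraries. Pairing that touches only some genes would not show in these correlations. A group left with 1 library was assumed to vary like the others. COPRS, at 408 to 766 counts, has the least precise values.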
